A study of Mus musculus with 21 samples.

Results

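The genes described here encode the aminoacyl-tRNA synthetases of the mouse, the enzymes that load each transfer RNA with its amino acid. They were chosen by name from the deposited gene counts: 36 symbols were listed, 20 for the cytosolic enzymes and 16 for the mitochondrial ones, and all 36 matched a row of the 54446 in the table through GENCODE M21. Of these, all 36 also passed the filter on low counts that left 21100 genes for testing. The choice by name used no value, but it was proposed with earlier results of these libraries in view, so the counts and medians below describe the members and lend no independent support to a direction. The lowest count of any cytosolic member in any library was 382, and that of any mitochondrial member apart from Lars2 was 67.

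A synthetase joins an amino acid to the transfer RNA whose anticodon reads the matching codon, and the ribosome then uses the charged transfer RNA. Cytosolic and mitochondrial translation are separate, and most mitochondrial enzymes have nuclear genes of their own, whose symbols end in 2, while Gars and Kars serve both compartments from a single gene. Several cytosolic synthetases sit together in a multi-synthetase complex held by the scaffold proteins Aimp1, Aimp2 and Eef1e1. When uncharged transfer RNA accumulates, the kinase encoded by Eif2ak4 (GCN2) phosphorylates the initiation factor eIF2alpha, and the transcription factor ATF4 is then translated and activates genes of amino acid supply, many cytosolic synthetase genes among them. In the bone marrow, stem cells are known for a lower rate of protein synthesis than the progenitors they give rise to.

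RNA was measured in cells sorted from the bone marrow of Phf6 wild-type (WT) and Phf6 knockout (KO) C57BL/6 mice, all aged 12 weeks. Phf6 is a nuclear protein with plant homeodomain fingers. LT-HSC, the long-term stem cells, and the multipotent progenitors MPP2 and MPP3 were sorted from WT and KO mice with a lineage cocktail and antibodies to Sca-1, cKit, CD150 and CD48, at 100 to 200 cells a sort. There were 2 WT and 3 KO LT-HSC libraries and 4 libraries in each of the WT MPP2, KO MPP2, WT MPP3 and KO MPP3 groups. No treatment or further transgene is named for any group, and the KO allele is not given in the sources used here. Libraries are named by group and replicate number.

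Total counts ran from 18892723 to 31611366 per library, and levels are in CPM, meaning counts scaled by library totals and TMM factors. Phf6 was lower in every KO library, at 2.45 to 13.3 CPM, than in the WT libraries, at 54.4 to 209.7 CPM. It passed the test in LT-HSC (log2 fold change -3.96), MPP2 (-3.54) and MPP3 (-3.86). The 10 stem cell markers summed to 756 to 1059 CPM in LT-HSC and to 124 to 710.3 CPM in the progenitor libraries, and the highest of the latter was KO MPP3 2. Immunoglobulin genes took 45.8% of the counts of KO MPP2 1 and 25.8% of those of KO MPP3 1, and rRNA genes, nuclear and mitochondrial together, took 21.2% of those of KO MPP3 2. The 10 B and plasma cell markers summed to 37.1 to 71.4 CPM in LT-HSC, with 2 of them at 0 throughout KO LT-HSC and 1 throughout KO MPP3. In MPP2 they summed to 40718 and 26358 CPM in WT replicates 1 and 2 and to 750472 and 19741 CPM in KO replicates 1 and 2, against 50.6 to 95.3 CPM in replicates 3 and 4 of both genotypes. In MPP3 they summed to 576 to 804 CPM apart from KO MPP3 1, at 265835 CPM. The 8 neutrophil markers summed to 4489 CPM in WT LT-HSC 2, 15022 CPM in KO MPP2 1 and 1827 CPM in WT MPP3 1, and to 5.20 to 322 CPM in the other libraries, with 4 of them at 0 throughout KO LT-HSC. For comparisons that hold KO MPP2 or KO MPP3, the cytosolic medians are given with and without KO MPP2 1, KO MPP3 1 and KO MPP3 2. Group means, levels per kilobase and medians of other gene lists include these 3 libraries. Mitochondrial medians are not given without all 3 of them. All 3 are KO libraries, left out after the data were seen, while WT libraries high in B cell or neutrophil markers stayed in. The sample titles carry low numbers for replicates 1 and 2 and high numbers for replicates 3 and 4 in the progenitors, and values within each set of numbers are given where they differ. With the 3 libraries left out, KO MPP3 keeps only replicates 3 and 4. KO LT-HSC and WT MPP3 hold both low and high title numbers. In that setting a difference of KO MPP3 from these groups cannot be fully told apart from one between title numbers.

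As a group mean over all libraries, the summed cytosolic synthetase messages were highest in KO MPP2. Summed over the 20 genes, they stood at 2571 and 2359 CPM in the WT LT-HSC libraries and at 2642, 3106 and 2785 CPM in the KO LT-HSC libraries. WT MPP2 held 2638, 2592, 3589 and 2817 CPM, and KO MPP2 held 3187, 3542, 3688 and 4087 CPM. WT MPP3 held 2419, 2453, 3255 and 2501 CPM, and KO MPP3 held 2652, 1686, 3332 and 3446 CPM. KO LT-HSC lay wholly above WT LT-HSC, while the KO and WT ranges overlapped in MPP2 through WT MPP2 3 and in MPP3 on both sides. As group means, KO MPP2 stood at 3626 ± 372 CPM (SD, n = 4), WT MPP2 at 2909 ± 464 (SD, n = 4), KO LT-HSC at 2844 ± 238 (SD, n = 3), KO MPP3 at 2779 ± 808 (SD, n = 4), WT MPP3 at 2657 ± 400 (SD, n = 4) and WT LT-HSC at 2465 ± 149 (SD, n = 2). Below KO MPP2, neighbours in that order differed by less than the SD of at least one of them. In bulk libraries, fewer cells of a type and less RNA per cell cannot be told apart.

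**Figure D1:**
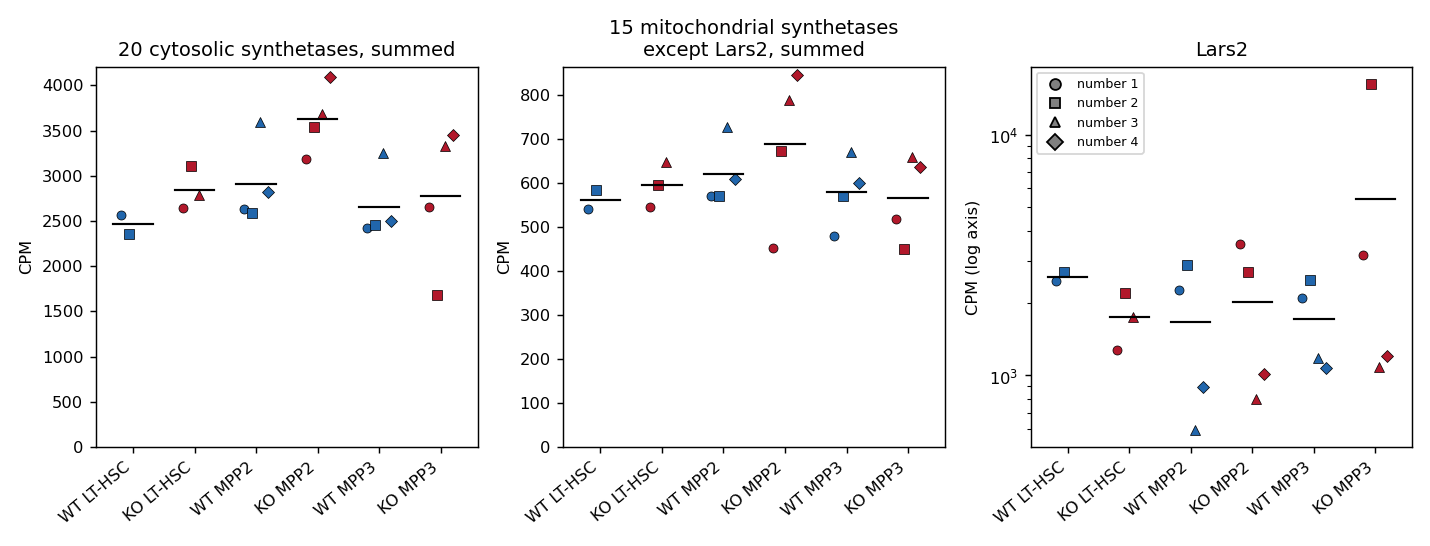
Summed level in CPM of the 20 cytosolic synthetases (left), of the 15 mitochondrial synthetases without Lars2 (middle) and of Lars2 alone (right, log axis), 1 symbol per library by replicate number, WT in blue and KO in red, bars at group means. KO MPP2 has the highest mean of the cytosolic sum (3626 CPM), and Lars2 in KO MPP3 2 stands apart at 16297 CPM.

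Gene by gene, with all libraries included, KO MPP2 had the highest group mean for 18 of the 20 cytosolic members, and WT LT-HSC had the lowest for 10. The highest group mean was 1.24 to 2.73 times the lowest, with a median ratio of 1.53. For the 15 mitochondrial members without Lars2 the ratios ran from 1.23 to 2.28 with a median of 1.5, and KO MPP2 had the highest mean for 7 of them. Their sum was 562.8 ± 30.7 CPM in WT LT-HSC (SD, n = 2), 596 ± 51.3 in KO LT-HSC (SD, n = 3), 620.0 ± 74.2 in WT MPP2 (SD, n = 4), 690.0 ± 174 in KO MPP2 (SD, n = 4), 581 ± 79.2 in WT MPP3 (SD, n = 4) and 566 ± 99.4 in KO MPP3 (SD, n = 4). Every pair of neighbours in the order of these 6 means differed by less than the larger of their SDs. Per kilobase of the longest coding transcript, the median cytosolic member stood at 34 CPM per kb in WT LT-HSC and 47.7 in KO MPP2, and the median mitochondrial member at 10.8 and 11.4.

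Sequences near the start site are shown for the 5 cytosolic members whose promoter window holds the letters TGATGNAA, the core of the composite element that C/EBP and ATF factors bind, because ATF4 is a known activator of these genes. The windows are RefSeq's, in GRCm38.p6, from 250 bases before to 50 after the start, and 27 of the 36 members have one, 13 cytosolic and 14 mitochondrial. Both strands were searched, and the capitals mark the motif, read as its reverse complement where it lies on the other strand. It has no letters in common with a match of CACGTG, the second motif searched, which is in capitals where it is shown.
Aars (chr8:111033706-111033761, plus strand, before the start): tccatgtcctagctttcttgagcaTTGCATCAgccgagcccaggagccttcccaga
Gars (chr6:55037947-55038000, plus strand, before the start): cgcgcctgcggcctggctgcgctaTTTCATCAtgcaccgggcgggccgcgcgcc
Tars (chr15:11399659-11399697, minus strand, before the start): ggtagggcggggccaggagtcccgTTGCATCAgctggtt
Iars (chr13:49682126-49682155, plus strand, after the start): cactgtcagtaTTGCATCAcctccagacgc
Yars (chr4:129189895-129189924, plus strand, after the start): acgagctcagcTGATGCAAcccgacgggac
The motif was in 5 of the 13 cytosolic windows (38.5%), in 0 of the 14 mitochondrial ones and in 3.97% of all 32851 windows of the table. Aars held a further match just after its start. CACGTG, the E-box that MYC and MAX bind, was in 4 of the 13 cytosolic windows (30.8%: Aars, Farsb, Iars and Tars), in 1 of the 14 mitochondrial ones (Ears2, 7.14%) and in 7.15% of all windows. That box is shown for Iars and Farsb, which are described below.
Iars (chr13:49682037-49682090, plus strand, before the start): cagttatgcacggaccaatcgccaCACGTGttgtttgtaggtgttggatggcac
Farsb (chr1:78488907-78488960, minus strand, before the start): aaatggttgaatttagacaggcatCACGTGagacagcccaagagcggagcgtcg
A match describes the letters in the window and not a bound site.

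The comparison of KO with WT MPP2 asks what the loss of Phf6 did in these progenitors. In MPP2, 19 of the 20 cytosolic members had a log2 fold change above 0, which 51% of all genes had, and their median was 0.38, against 0.01 over all 21100 genes tested. The exception was Dars, the aspartate enzyme, at -0.06. None of the 36 members passed edgeR's quasi-likelihood test at an adjusted p of 0.05, which 0.0142% of all genes did, and the lowest adjusted p of a member was 0.738. At an unadjusted p under 0.05 there were 7 members, all cytosolic and all higher in KO, where 6.72% of all genes reached that level in either direction. DESeq2 and limma called 0 members as well. DESeq2 called few genes of any kind here, as counted in the last section, and limma's count over all genes is not given.

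Aars, the alanine enzyme (ENSMUSG00000031960.14, chromosome 8, 111033144 to 111057664, plus strand, GRCm38), shares 1326 exon bases with Exosc6 on the same strand. It stood at 34.5, 37.9, 50.4 and 59.2 CPM in the WT MPP2 libraries and at 62.6, 68.2, 67.6 and 103 CPM in the KO libraries. All 4 KO libraries lay above all 4 WT libraries, and KO MPP2 4 was far above the other three. The log2 fold change was 0.73 ± 0.23 (SE, edgeR adjusted p = 0.738, and 0.336 to 0.970 over the alternatives). Iars, the isoleucine enzyme (ENSMUSG00000037851.13, chromosome 13, 49682100 to 49734267, plus strand), stood at 109, 99.9, 92.3 and 98.8 CPM in WT MPP2 and at 120.1, 137, 159.8 and 177 CPM in KO MPP2. Here too the groups did not overlap, with a log2 fold change of 0.57 ± 0.19 (SE, edgeR adjusted p = 0.738, and 0.426 to 0.970 over the alternatives). A processed pseudogene of Iars, Gm4849, shares 1656 bases with it at 96.0% identity but held 988 counts in all against 59660. Vars, the valine enzyme (ENSMUSG00000007029.16, chromosome 17, 35000987 to 35016322, plus strand), stood at 99.0, 136, 135 and 83.0 CPM in WT MPP2 and at 132, 146, 182 and 273 CPM in KO MPP2. These groups overlapped through KO MPP2 1, and KO MPP2 4 was the highest of all 21 libraries. The log2 fold change of Vars was 0.69 ± 0.23 (SE, edgeR adjusted p = 0.738), and it was 0.44 without KO MPP2 4.

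Besides Aars and Iars, the KO and WT MPP2 libraries did not overlap for Cars, Nars and Qars, the cysteine, asparagine and glutamine enzymes. These 5 of 36 members were higher without overlap, all cytosolic, where 1.43% of all genes were, and 0 members were lower without overlap, where 1.08% were. Cars ran from 16.3 to 34.8 CPM in WT MPP2 and from 37.2 to 51.7 CPM in KO MPP2, Nars from 229 to 336 and from 339.7 to 463, and Qars from 64.4 to 106 and from 107 to 127. The gap between the groups was narrow for Nars and Qars. Without KO MPP2 1, KO MPP3 1 and KO MPP3 2, the count without overlap was 10 cytosolic and 2 mitochondrial members, where 4.05% of all genes were, and the cytosolic median was 0.44. Within replicates 1 and 2 the cytosolic median was 0.31, and within replicates 3 and 4, where B and plasma cell markers were low in both genotypes, it was 0.39. With the replicate number as a block it was 0.39, with 0 members called.

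By place in the cell, the 8 enzymes of the multi-synthetase complex among the members had a median log2 fold change of 0.32 in KO against WT MPP2, with 7 of 8 higher. The 3 scaffold proteins, Aimp1, Aimp2 and Eef1e1, were all below 0, with a median of -0.09 and none called. The 15 mitochondrial members without Lars2 had a median of 0.17, with 11 of 15 higher, 0 at an unadjusted p under 0.05 and 0 without overlap. This mitochondrial median was 0.03 without KO MPP2 3, 0.30 without KO MPP2 1 and -0.16 within replicates 1 and 2. Tars2, the mitochondrial threonine enzyme, had the lowest unadjusted p of these, with a log2 fold change of 0.54 ± 0.26 (SE). Among the 13 cytosolic members with a promoter window, the 5 with TGATGNAA differed by 0.20 (Tars) to 0.73 (Aars) in KO against WT MPP2, and the 8 without it by -0.06 (Dars) to 0.72 (Mars1). The ranges of these differences overlapped. Cars, Hars, Lars, Nars, Rars, Vars and Wars have no window and are not part of this split.

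**Figure D2:**
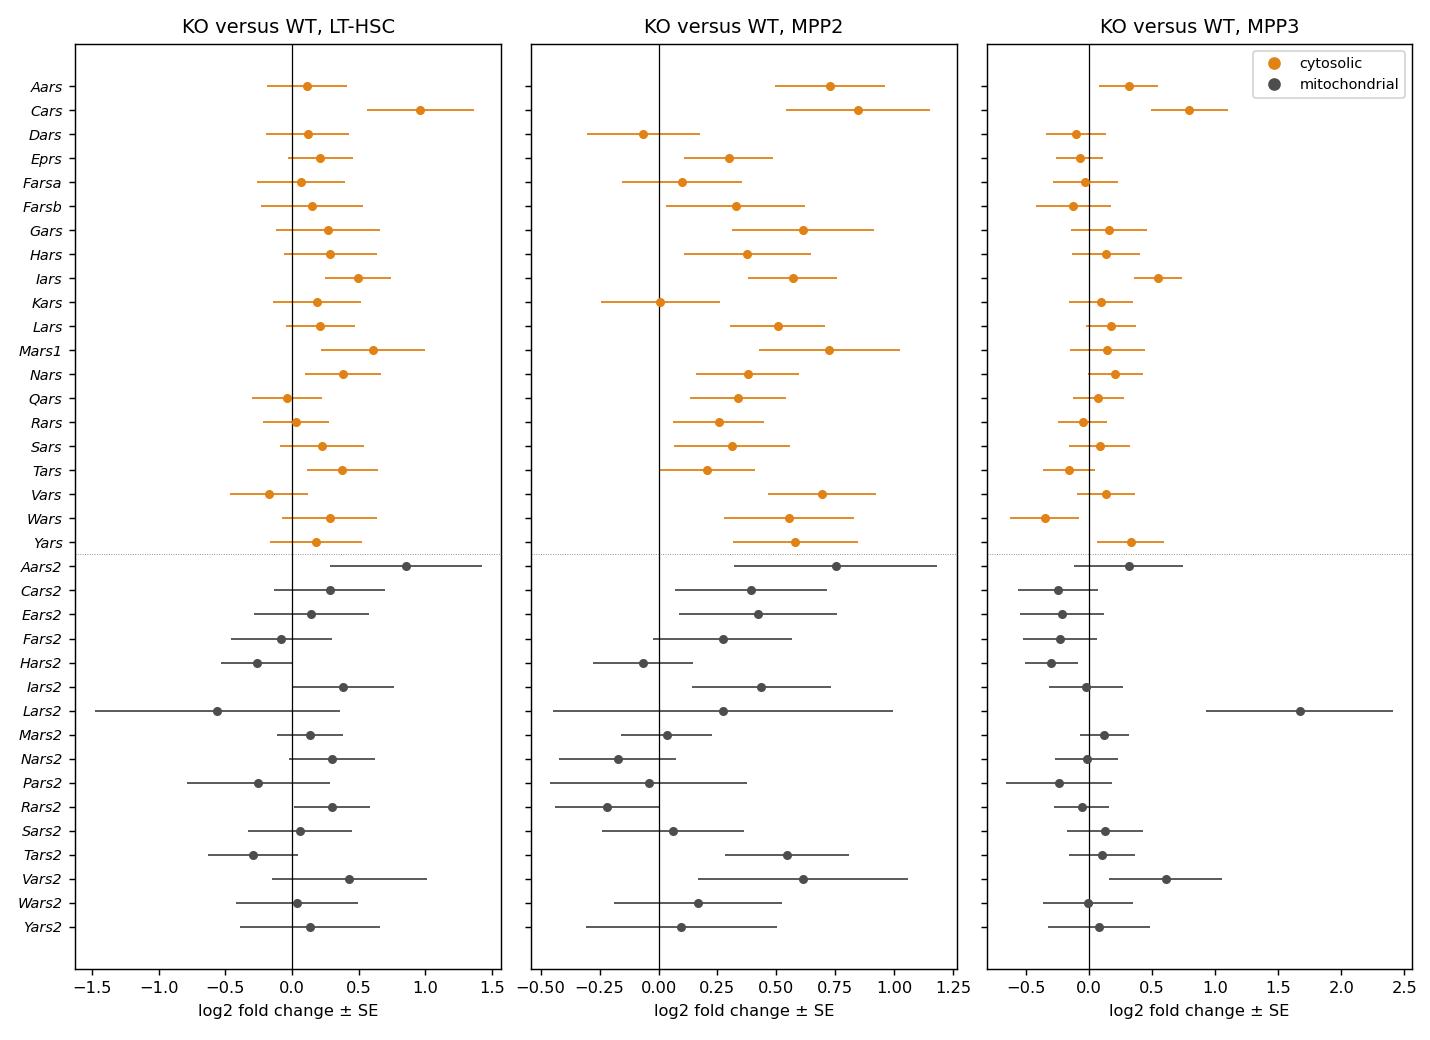
Log2 fold change of KO against WT with its standard error for each of the 36 synthetases in LT-HSC, MPP2 and MPP3, cytosolic members in orange and mitochondrial ones in grey, on axes of different length. In MPP2, 19 of 20 cytosolic members lie to the right of 0, with a median of 0.38, and the wide bars of Lars2 reflect its spread between libraries.

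In LT-HSC, KO against WT, 18 of 20 cytosolic members had a fold change above 0, which 50.3% of all genes had. Their median was 0.21 on the log2 scale, against 0.00 over all genes. No member passed the test (0.00474% of all genes did), and 1 member, Cars, had an unadjusted p under 0.05, which 2.43% of all genes had. Cars (ENSMUSG00000010755.17, chromosome 7, 143557230 to 143600090, minus strand) stood at 17.1 and 16.5 CPM in WT LT-HSC and at 20.3, 27.1 and 50.8 CPM in KO LT-HSC. The KO libraries lay above the WT libraries, and KO LT-HSC 3 stood well above the other KO libraries. KO LT-HSC 3 is the only LT-HSC library with a high title number. What it adds to this and the next LT-HSC differences cannot be told apart from a difference between title numbers. The log2 fold change of Cars was 0.96 ± 0.40 (SE), edgeR's adjusted p did not fall below 0.99997 under any alternative, and the fold change was 0.50 without KO LT-HSC 3.

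Iars in LT-HSC stood at 84.0 and 77.1 CPM in WT and at 141, 126 and 73.9 CPM in KO, so that KO LT-HSC 3 lay below both WT libraries (log2 fold change 0.50 ± 0.25, SE, and 0.31 without KO LT-HSC 1). Mars1, the methionine enzyme (ENSMUSG00000040354.14, chromosome 10, 127296221 to 127311786, minus strand), stood at 60.3 and 49.8 CPM in WT and at 58.8, 75.7 and 117 CPM in KO (0.61 ± 0.39, SE, and 0.29 without KO LT-HSC 3). The 2 genes thus had their highest KO LT-HSC value in different libraries. Mars1 shares 68 exon bases with Ddit3, an ATF4 response gene on the opposite strand, and the Nextera XT kit does not mark strand, so reads from these bases cannot be told apart. Without overlap, 3 members were higher in KO LT-HSC, Cars, Nars and Rars2, where 7.53% of all genes were, and 1 was lower, Lars2, where 10.8% were. The mitochondrial median without Lars2 was 0.14, with 11 of 15 higher, and it ran from -0.01 without KO LT-HSC 3 to 0.24 without WT LT-HSC 2. The cytosolic median ran from 0.09 without KO LT-HSC 2 to 0.28 without KO LT-HSC 1, and it was 0.14 without WT LT-HSC 2, the WT LT-HSC library high in neutrophil markers. With the replicate number as a block, which holds 2 pairs here, it was 0.06.

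In MPP3, KO against WT, the cytosolic members were split: 13 of 20 had a fold change above 0, which 50.5% of all genes had. Their median was 0.11 on the log2 scale, against 0.00 over all genes. No member passed the test (0.00948% of all genes did), and Iars, Cars and Lars2, all higher in KO, had an unadjusted p under 0.05, where 5.62% of all genes did. Iars stood at 79.7, 67.1, 104 and 67.1 CPM in WT MPP3 and at 102, 113, 130.2 and 119.7 CPM in KO MPP3. Only WT MPP3 3 reached into the KO range, and the log2 fold change was 0.55 ± 0.19 (SE, edgeR adjusted p = 0.880). Cars stood at 19.6, 23.0, 29.97 and 22.1 CPM in WT MPP3 and at 41.6, 21.7, 49.3 and 51.6 CPM in KO MPP3. KO MPP3 2 lay among the WT libraries and the other three KO libraries above them (0.80 ± 0.30, SE, edgeR adjusted p = 0.880).

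KO MPP3 2, the library rich in rRNA counts, also had the lowest cytosolic sum of all 21 libraries, 1686 CPM. For Farsb, a subunit of the phenylalanine enzyme, it held 46.0 CPM where the other three KO MPP3 libraries held 139, 222 and 193 CPM. Its Dars level was 126 CPM, and the other three held 332, 358 and 370.0 CPM. Cd48, Flt3, Mpo and other progenitor markers summed to 1882 CPM in KO MPP3 2 and to 4468, 6457 and 5943 CPM in KO MPP3 1, 3 and 4. The stem cell markers summed to 710 CPM in KO MPP3 2 and to 227, 124 and 144 CPM in those libraries. Whether cell content bears on its synthetase levels was not tested. Leaving out KO MPP3 2 gave a cytosolic median of 0.30, and leaving out KO MPP3 4 gave -0.04. Without KO MPP2 1, KO MPP3 1 and KO MPP3 2, 19 of 20 cytosolic members were higher in KO (42.5% of all genes), with a median of 0.38 against -0.10 over all genes, and 11 of them did not overlap between the groups, where 11.6% of all genes were higher without overlap. With only 2 KO libraries left, 7 of 36 members had an unadjusted p under 0.05, where 9.42% of all genes did, and 0 were called. Within replicates 1 and 2, which hold KO MPP3 1 and KO MPP3 2, the cytosolic median was -0.17, and within replicates 3 and 4 it was 0.28. In all 4 KO libraries, no member was higher without overlap, where 1.07% of all genes were, and 1 was lower, Hars2, the mitochondrial histidine enzyme, where 1.62% were. Hars2 ran from 58.6 to 72.3 CPM in WT MPP3 and from 48.7 to 57.2 CPM in KO MPP3, and it shares 195 exon bases with Hars on the opposite strand. The mitochondrial median without Lars2 was -0.02, with 6 of 15 higher, and it ran from -0.10 without WT MPP3 1 to 0.08 without KO MPP3 2.

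**Figure D3:**
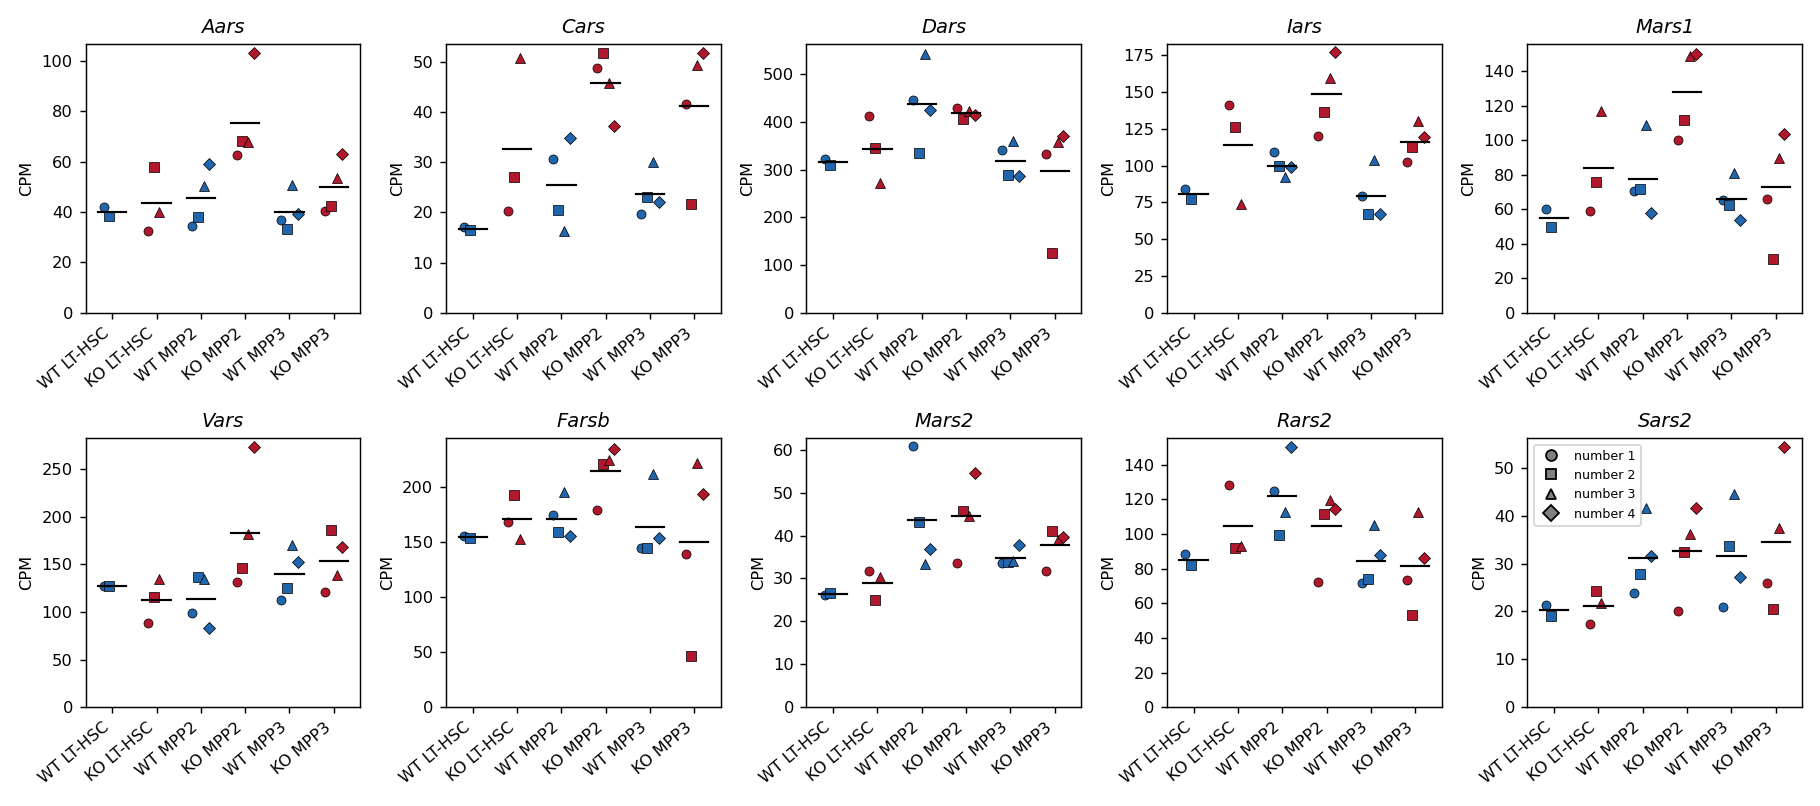
Level in CPM of 10 synthetases in every library by group, 1 symbol per library by replicate number, WT in blue and KO in red, with bars at group means. Aars and Iars in KO MPP2 lie above WT MPP2 in all 4 libraries, while KO MPP3 2 falls to 126 CPM for Dars and 46.0 CPM for Farsb.

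Whether the KO effect differed between populations was tested directly. The KO effect in MPP2 minus that in MPP3 was above 0 for 19 of 20 cytosolic members (50% of all genes), with a median of 0.28, and 1 member reached an unadjusted p under 0.05, where 4.47% of all genes did. That member was Wars, the tryptophan enzyme, with a difference of 0.90 ± 0.39 (SE). The KO effect in MPP2 minus that in LT-HSC had a cytosolic median of 0.10, with 15 of 20 above 0 (49.9% of all genes), and Vars alone reached an unadjusted p under 0.05 (0.86 ± 0.37, SE), where 3.6% of all genes did. That median ran from 0.05 without KO MPP2 4 to 0.24 without WT MPP2 3, and it was 0.28 with the replicate number as a block and 0.21 without KO MPP2 1, KO MPP3 1 and KO MPP3 2. For MPP3 minus LT-HSC the cytosolic median was -0.13, with 5 of 20 above 0 (49.5% of all genes) and no member under an unadjusted p of 0.05, where 2.47% of all genes were. The direction of this median turned, as it was 0.06 without KO MPP3 2 and 0.19 without the 3 libraries named before, and it was -0.26 without KO MPP3 4. No gene of any kind passed these 3 tests by edgeR after adjustment (0%). DESeq2 called 0 members in them, and its count over all genes in these 3 tests is not given here. The difference between MPP2 and MPP3 had a cytosolic median of 0.13 without KO MPP3 2 and of 0.05 without KO MPP2 1, KO MPP3 1 and KO MPP3 2.

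Between populations, the question was whether the synthetase genes differed from stem cells to progenitors. In WT mice, 16 of 20 cytosolic members had a higher mean in MPP2 than in LT-HSC, where 49.6% of all genes had. Their median log2 fold change was 0.26 against 0.00 over all genes. None of the 36 passed the test, which 0.63% of all genes did, and 1, Mars2, had an unadjusted p under 0.05, which 13% of all genes had. Mars2, the mitochondrial methionine enzyme (ENSMUSG00000046994.9, chromosome 1, 55237177 to 55248470, plus strand), stood at 26.2 and 26.7 CPM in WT LT-HSC and at 60.9, 43.2, 33.3 and 36.8 CPM in WT MPP2. All 4 MPP2 libraries lay above both LT-HSC libraries (log2 fold change 0.72 ± 0.24, SE, edgeR adjusted p = 0.186, and 0.0648 to 0.660 over the alternatives). In KO mice it stood at 31.8, 24.9 and 30.4 CPM in LT-HSC and at 33.5, 45.6, 44.7 and 54.5 CPM in MPP2, again without overlap (0.62 ± 0.21, SE, edgeR adjusted p = 0.153).

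Rars2, the mitochondrial arginine enzyme (ENSMUSG00000028292.14, chromosome 4, 34614957 to 34660167, plus strand), stood at 88.5 and 81.8 CPM in WT LT-HSC, at 125, 99.2, 112 and 150.3 CPM in WT MPP2 and at 71.7, 74.0, 105 and 87.9 CPM in WT MPP3. The MPP2 libraries lay above both LT-HSC libraries and overlapped with MPP3 through WT MPP3 3. The log2 fold change was 0.52 ± 0.27 (SE, edgeR adjusted p = 0.453) against LT-HSC and 0.52 ± 0.22 (SE, edgeR adjusted p = 0.295) against MPP3. Sars2, the mitochondrial serine enzyme (ENSMUSG00000070699.5, chromosome 7, 28741992 to 28753871, plus strand), stood at 21.4 and 19.1 CPM in WT LT-HSC, at 23.9, 27.9, 41.7 and 31.5 CPM in WT MPP2 and at 20.9, 33.6, 44.6 and 27.2 CPM in WT MPP3. MPP3 overlapped with LT-HSC through WT MPP3 1, and MPP2 did not. Its log2 fold changes were 0.63 ± 0.38 (SE) in MPP2 and 0.64 ± 0.38 (SE) in MPP3.

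Without overlap, 6 of 36 members were higher in WT MPP2 than in WT LT-HSC, Dars, Farsb, Iars, Mars2, Rars2 and Sars2, where 11.6% of all genes were, and 0 were lower, where 15.3% were. Dars (ENSMUSG00000026356.15, chromosome 1, 128363707 to 128417368, minus strand) stood at 322 and 310.1 CPM in WT LT-HSC, at 446, 335, 542 and 424 CPM in WT MPP2 and at 341, 288, 359.7 and 287 CPM in WT MPP3. WT MPP2 2 was close to the LT-HSC level, and the other three were well above it (log2 fold change 0.47 ± 0.30, SE). The mitochondrial median without Lars2 was 0.05, with 8 of 15 higher, and it ran from -0.06 without WT LT-HSC 1 to 0.16 without WT LT-HSC 2. The WT LT-HSC libraries are both of the low title numbers, and within replicates 1 and 2 the cytosolic median of MPP2 against LT-HSC was 0.04. With the replicate number as a block it was 0.06, and without WT MPP2 3 it was 0.13.

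In WT MPP3 against WT LT-HSC, 15 of 20 cytosolic members had a higher mean (52.1% of all genes), with a median of 0.08 against 0.03 over all genes, and the mitochondrial median was 0.18. Without WT MPP3 3 these medians were -0.01 and -0.02, and without WT MPP3 1 they were 0.16 and 0.26. Within replicates 1 and 2 they were -0.04 and -0.08, with a term for the title numbers -0.03 and -0.08, and with the replicate number as a block -0.02 and -0.01. No member passed the test (1.1% of all genes did) or reached an unadjusted p under 0.05 (9.2%). Cars, Cars2 and Mars2 were higher without overlap, where 12% of all genes were, and Tars2 was lower, where 14.2% were. Cars stood at 0.50 ± 0.38 (SE) on the log2 scale and Mars2 at 0.39 ± 0.24 (SE). In WT MPP2 against WT MPP3, 15 of 20 cytosolic members had a higher mean in MPP2 (48% of all genes), with a median of 0.10 against -0.02 over all genes. Again no member passed (1.2% of all genes did), Rars2 alone had an unadjusted p under 0.05 (13.5%), and none was higher or lower without overlap (5.33% and 4.87%). Dars was at 0.45 ± 0.24 (SE) and Iars at 0.33 ± 0.19 (SE). The cytosolic median of this comparison was -0.02 without WT MPP2 3 and 0.25 without WT MPP3 3, the libraries with the highest cytosolic sum in their groups.

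In KO mice, all 20 cytosolic members had a higher mean in MPP2 than in LT-HSC, where 52.5% of all genes had, and their median log2 fold change was 0.33 against 0.04. None passed edgeR's test (1.81% of all genes did). At an unadjusted p under 0.05 there were 4 members, Aars, Vars, Yars and Mars2, all higher in MPP2, where 16.3% of all genes reached it. Aars stood at 32.4, 57.8 and 40.1 CPM in KO LT-HSC, all below the 4 KO MPP2 libraries given above (0.80 ± 0.25, SE, edgeR adjusted p = 0.125). DESeq2 called Aars here, 1 of 36 members, with an adjusted p of 0.0454, where it called 7.09% of the genes it gave an adjusted p, and this was the one call of a member in any comparison under any alternative. In all, 5 members were higher without overlap, Aars, Nars, Sars, Yars and Mars2, where 6.59% of all genes were, and 0 were lower (7.62%). Without KO MPP2 1, KO MPP3 1 and KO MPP3 2, all 20 cytosolic members were again higher (46.7% of all genes), with a median of 0.38. Then 10 cytosolic and 3 mitochondrial members were higher without overlap (13.6% of all genes) and 0 were lower (12.1%). Within replicates 3 and 4 the cytosolic median was 0.52, and with the replicate number as a block it was 0.21.

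All 20 cytosolic members were also higher in KO MPP2 than in KO MPP3 (51.3% of all genes), with a median of 0.43 against 0.02 over all genes. No member passed (0.886% of all genes did), and 7 had an unadjusted p under 0.05, 6 of them cytosolic, where 14.5% of all genes did. Mars1 had the largest of these differences, 0.81 ± 0.30 (SE, edgeR adjusted p = 0.226), from 66.0, 31.2, 89.8 and 104 CPM in KO MPP3 to 100.2, 112, 149 and 149.7 CPM in KO MPP2. Those groups overlapped, as KO MPP3 4 lay just above KO MPP2 1. Dars and Iars2 were higher without overlap (3.59% of all genes were), and 0 members were lower (3.5%). The cytosolic median was 0.24 without KO MPP3 2, with 16 of 20 higher. Only 13 of 20 cytosolic members were higher without KO MPP2 1, KO MPP3 1 and KO MPP3 2 (52% of all genes), with a median of 0.14. In that setting 8 cytosolic and 3 mitochondrial members were higher without overlap (16% of all genes), and Farsa and Kars, the enzymes for phenylalanine and lysine, were lower (13.7%). The cytosolic median was 0.70 within replicates 1 and 2, which hold these 3 libraries, and 0.18 within replicates 3 and 4.

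In KO MPP3 against KO LT-HSC, 10 of 20 cytosolic members had a higher mean (51.9% of all genes) and the median was -0.03 against 0.03. None passed (2.64% of all genes did), Sars2 was higher and Nars2 lower at an unadjusted p under 0.05 (15.6%), and Nars2 alone did not overlap, being lower in MPP3, where 6.73% of all genes were lower and 5.28% higher without overlap. Within replicates 1 and 2 this cytosolic median was -0.45, and within replicates 3 and 4 it was 0.37. It was 0.13 without KO MPP3 2, -0.14 without KO MPP3 4 and -0.18 with the replicate number as a block. Without KO MPP2 1, KO MPP3 1 and KO MPP3 2, KO MPP3 holds only replicates 3 and 4, of high title numbers. In that setting 17 of 20 cytosolic members were higher in MPP3 (44.6% of all genes), with a median of 0.28. Then 7 cytosolic and 3 mitochondrial members were higher without overlap (17.3% of all genes), and Nars2 and Lars2 were lower (16.6%). The KO MPP2 libraries serve in 3 of these comparisons, so their medians are not independent of each other.

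**Figure D4:**
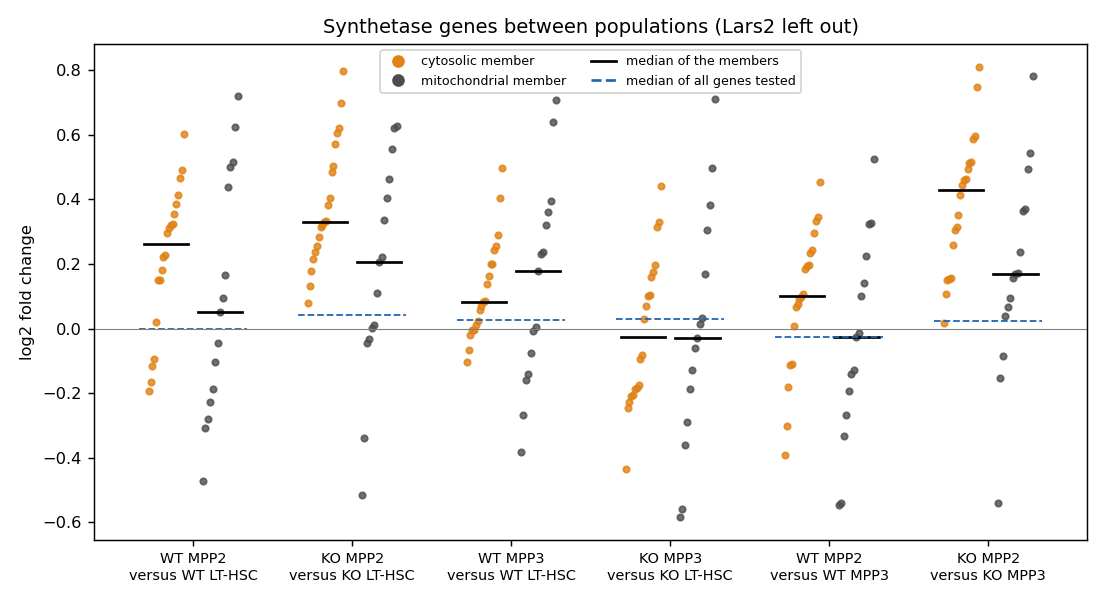
Log2 fold change between populations for each synthetase except Lars2, cytosolic members in orange and mitochondrial ones in grey, sorted within each column, with solid bars at the members' median and dashed bars at the median of all 21100 genes tested. All 20 cytosolic points lie above 0 for KO MPP2 against KO LT-HSC (median 0.33) and against KO MPP3 (median 0.43), and 10 of 20 for KO MPP3 against KO LT-HSC. The count against KO MPP3 was 13 of 20 without KO MPP2 1, KO MPP3 1 and KO MPP3 2.

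Lars2, the mitochondrial leucine enzyme (ENSMUSG00000035202.8, chromosome 9, 123366927 to 123462666, plus strand), did not vary like the other members and is left out of the medians above. It held 1250776 counts over the 21 libraries, more than any other member, and ran from 594 CPM in WT MPP2 3 to 16297 CPM in KO MPP3 2, a range of 27.4-fold. In WT MPP2 it stood at 2273, 2891, 594 and 899 CPM and in KO MPP2 at 3525, 2701, 801 and 1017 CPM. In both genotypes of both progenitors, replicates 1 and 2 lay above replicates 3 and 4. The share of counts in rRNA genes was also higher in replicates 1 and 2 than in 3 and 4 of each of these groups.

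The counts of Lars2 followed those of Gm15564, an antisense gene on chromosome 16 that shares 72 bases with the transcript Lars2-201 at 98.6% identity. The ratio of Lars2 to Gm15564 counts lay between 2.02 and 2.37 in all 21 libraries, while the level of Gm15564 itself ranged 28.2-fold. Per count of mt-Rnr2, the large mitochondrial rRNA, Lars2 ranged from 0.0849 to 0.291. How the deposited counts treated reads shared by Lars2 and Gm15564 is not given in the sources used here, so these values are uncertain as a measure of the Lars2 message. In KO against WT MPP3, Lars2 stood at 2097, 2487, 1180.3 and 1071 CPM in WT and at 3171, 16297, 1081 and 1205 CPM in KO. The log2 fold change of 1.67 ± 0.74 (SE, edgeR adjusted p = 0.880) was 0.09 without KO MPP3 2 and -0.58 without KO MPP2 1, KO MPP3 1 and KO MPP3 2.

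**Figure D5:**
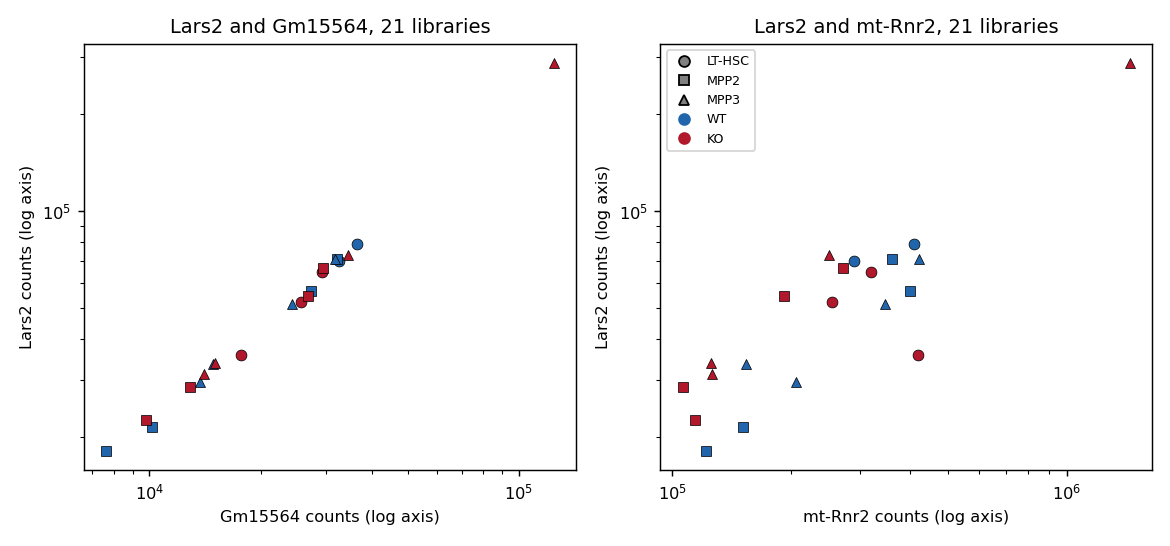
Counts of Lars2 in the 21 libraries against counts of Gm15564 (left) and of mt-Rnr2 (right), on log axes, by population (symbol) and genotype (WT blue, KO red). The points at left lie near a straight line, with ratios of 2.02 to 2.37, and KO MPP3 2 is the highest on every axis.

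Other members also share sequence with annotated genes. In all, 22 members had a stretch of at least 50 bases, at 95% identity or more, in common with a transcript of another gene. For 18 of them such a gene held over 1000 counts. Only some of these are described here. Exons overlap by 422 bases for Cars2 and Naxd, by 2034 for Iars2 and Rab3gap2 and by 89 for Ears2 and Ubfd1, in each case on opposite strands. Reads from these stretches cannot be assigned by strand, so the values of Iars2 and Cars2 above are uncertain. Aars shares 1326 exon bases, identical in sequence, with Exosc6, a subunit of the RNA exosome that lies on the same strand. Strand could not tell their reads apart. Exosc6 held 0 counts in all 21 libraries against 27667 for Aars, and whether reads from these bases were counted for Aars or left out is not given in the sources used here. Vars shares no exon bases with another gene.

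The genes around the synthetases showed few calls. Of the 24 tested ATF4 response genes, 19 had a higher mean in KO than in WT LT-HSC (median log2 fold change 0.31), 18 in MPP2 (0.18) and 15 in MPP3 (0.13), where 50.3%, 51% and 50.5% of all genes did, and 0 were called in any of the 3. Mthfd2, a mitochondrial folate enzyme, stood at 11.8 and 12.6 CPM in WT LT-HSC and at 26.9, 35.4 and 48.2 CPM in KO LT-HSC, without overlap (1.60, with an unadjusted p of 0.0033). Of the 10 amino acid transporter genes, 7 were higher in KO LT-HSC (median 0.20), 10 in KO MPP2 (0.33) and 9 in KO MPP3 (0.30), again with 0 calls. Their sum was 1475, 1047, 882 and 957 CPM in KO MPP2 against 777 to 1002 CPM in WT MPP2. In KO MPP3 it was 1059, 1116, 933 and 984 CPM against 866 to 976 CPM in WT MPP3. The highest values were thus in KO MPP2 1 and KO MPP3 2, libraries rich in immunoglobulin or rRNA counts. The 9 genes of eIF2alpha kinases and their partners had medians of 0.04, 0.14 and -0.02, and the 21 genes of RNA polymerase III, which makes the transfer RNAs, 0.04, 0.19 and 0.14, with 0 calls in both lists. Of the 11 other genes of transfer RNA charging, 9 were higher in KO LT-HSC (0.22), 8 in KO MPP2 (0.20) and 5 in KO MPP3 (-0.03), with 0 calls.

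Between populations, single genes of these lists passed where no synthetase did. Asns, asparagine synthetase, an ATF4 response gene that makes the amino acid used by Nars, was higher in WT MPP2 than in WT MPP3 (log2 fold change 2.15 ± 0.43, SE, edgeR adjusted p = 0.0207). It stood at 38.2, 49.8, 112 and 75.0 CPM in WT MPP2 and at 14.8, 21.3, 14.5 and 11.4 CPM in WT MPP3, without overlap. In KO mice the difference was 1.85 ± 0.43 (SE, edgeR adjusted p = 0.0456), from 26.7, 6.89, 51.8 and 28.8 CPM in MPP3 to 112, 87.1, 122 and 91.4 CPM in MPP2. Nars itself ranged from 224 to 278 CPM in WT MPP3 and from 229 to 336 CPM in WT MPP2. Nupr1, a stress response gene of the same list, was also called in both, at 5.07 ± 0.95 (SE, edgeR adjusted p = 0.0142) in WT. Qrsl1, a subunit of the mitochondrial glutamyl-tRNA amidotransferase, was higher in WT MPP3 than in WT LT-HSC (1.02 ± 0.24, SE, edgeR adjusted p = 0.0447), from 16.8 and 16.8 CPM to 26.6, 33.3, 30.3 and 46.2 CPM.

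A list of 17 proliferation genes was set beside the cytosolic members. All 17 had a higher mean in WT MPP2 than in WT LT-HSC (49.6% of all genes), with a median log2 fold change of 1.43, and 2 were called, Nusap1 and Birc5 (0.63% of all genes). All 17 were also higher in KO MPP2 than in KO LT-HSC (52.5% of all genes), with a median of 1.28 and 6 called (1.81%). For KO against WT, their median was 0.34 in LT-HSC, where the cytosolic members had 0.21. It was 0.19 in MPP2, where they had 0.38, and 0.59 in MPP3, where they had 0.11, with 0 proliferation genes called. Their part in the levels of the synthetases was not tested.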

How the data were processed

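RNA-seq counts of 21 libraries were used. The authors deposited raw read counts per gene, and the submitters' processing notes name STAR and the build mm10. Neither the counting program nor the annotation is given in those sources. The kit was Nextera XT per the labels' protocols. Gene names came from GENCODE M21 (54409 of 54446 IDs matched). No other column of samples was present (0).

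The main test was edgeR's robust quasi-likelihood test (edgeR 4.0.16, R 4.3.3), with TMM factors and filterByExpr at a minimum count of 10, in 1 fit of 21 libraries and 6 groups, with Benjamini-Hochberg adjustment over 21100 genes at 0.05. The main fit had no term for mouse or pair, so libraries that may come from the same mouse counted as independent. The SE is the log2 fold change divided by the square root of F. Total counts per library (median 26158938) limit the precision. The test was also run on counts simulated with larger fold changes than most members showed, so that run does not measure its power for them. Lists got no test. Alternatives were DESeq2 1.42.0, limma 3.58.1 voom, other scalings and filters, a term for the title numbers, each library left out, a replicate block and, added after seeing the data, 3 libraries left out and another number for KO LT-HSC 3.

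Replicate numbers were taken to mark mice and their pairs from the labels alone: titles of the same genotype and number are consecutive, except for KO LT-HSC 3, and the series' design describes mice in 4 pairs. Deviations from the group means correlated between same-numbered WT and KO libraries at 0.207 to 0.282 in MPP2, 0.0807 to 0.141 in MPP3 and 0.0390 to 0.0417 in LT-HSC. Between same-numbered libraries of different populations of a genotype, where a shared mouse would show, they ran from -0.0140 to 0.405. Libraries with different numbers reached 0.256 (KO MPP2 4 with WT MPP2 3), so these values do not show that a number marks a mouse.

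Members and lists were chosen with earlier results of these data known. Members named with values were the 3 of smallest p in each comparison of KO with WT and of WT populations; others were named after their values were seen. Some genes are not reported here.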

Additional observations from a re-analysis of the deposited data

Results flagged for a closer look

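Across the named members and the cytosolic and mitochondrial sums, 48 sets of 4 values were examined for a library far from the rest. Of these, 5 held one. Chance gives about 1 in 20 for a single such test, but the sets reuse the same libraries and are not independent. Aars in KO MPP2 4 stood at 103 CPM, above 62.6 to 68.2 CPM in the other three KO MPP2 libraries. Dars in KO MPP3 2 stood at 126 CPM, below 332 to 370.0 CPM in the other three KO MPP3 libraries. Lars2 in KO MPP3 2 stood at 16297 CPM, above 1081 to 3171 CPM in the other three. Mars2 in WT MPP3 4 stood at 37.7 CPM, above the narrow range of 33.5 to 34.1 CPM in the other three WT MPP3 libraries. The 20 cytosolic members summed to 3255 CPM in WT MPP3 3, above 2419 to 2501 CPM in the other three.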

How the results depend on the processing

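The count of members called was 0 in all 12 comparisons and in 237 of 238 alternatives; DESeq2 called 1, Aars in KO MPP2 against KO LT-HSC. Of 476 alternative medians, 463 moved by less than the pooled SD between replicates of the members' mean log2 CPM. A median can change sign within that limit. Many alternatives left out a single library, which can hardly move a median by that SD, and the SD includes the libraries left out. The count therefore does not show that the medians are stable. In KO against WT MPP3 the cytosolic median of 0.11 was -0.04 without KO MPP3 4 and 0.30 without KO MPP3 2. The SD of the cytosolic mean log2 CPM was 0.48 within KO MPP3, which holds KO MPP3 2, and 0.22 within WT MPP3. For WT MPP2 against WT LT-HSC the cytosolic and mitochondrial medians were 0.037 and -0.10 with replicates 1 and 2 only and 0.054 and -0.11 with a term for the title numbers, and the cytosolic one 0.056 with the replicate block. For WT MPP3 against WT LT-HSC the mitochondrial median was -0.075 with replicates 1 and 2 only and -0.081 with the term. For KO MPP3 against KO LT-HSC the cytosolic median was -0.45 with replicates 1 and 2 only and 0.37 with 3 and 4 only, and for KO MPP2 against KO LT-HSC 0.52 with 3 and 4 only. The replicate block gave 0.059 for KO against WT LT-HSC, 0.28 for the KO effect in MPP2 minus LT-HSC, and changed no call of a member. Without KO MPP2 1, KO MPP3 1 and KO MPP3 2, the KO effect in MPP3 minus LT-HSC had a cytosolic median of 0.19, and Lars2 in KO against WT MPP3 was -0.58. The causes were not tested. Of 321 values for named members, 320 kept their side of the threshold and direction. WT LT-HSC has no replicate 3 or 4, so that subset gave no value there. Over all genes, edgeR called 1, 3 and 2 genes in KO against WT LT-HSC, MPP2 and MPP3 and DESeq2 28, 35 and 38; between populations, edgeR called 133, 232, 253, 381, 558 and 187 genes in the order WT MPP2 and MPP3 against LT-HSC, MPP2 against MPP3, and the same in KO, and DESeq2 849, 635, 913, 1245, 1377 and 858. Each member had at least 67 counts in every library. Depth and the number of libraries both limit the precision, and their parts were not compared.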
